A study of Mus musculus with 37 samples.

Results

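Cadm1, Oaf and Il23r were followed in bone marrow-derived macrophages (BMDMs) with and without the clock gene Arntl, which encodes Bmal1. The 3 genes were chosen on these same values, because each was higher in Arntl-/- than in wild-type (WT) BMDMs at each of the 4 times followed here. They are 3 of the 24016 genes listed and 3 of the 10487 genes analyzed, which had at least 100 scaled reads in 1 or more WT libraries. BMDMs were grown for 6 days with M-CSF from male mice 6 to 9 weeks old. Exposure to Kdo2-lipid A (KLA), lipid A with its inner Kdo sugars and an agonist of Toll-like receptor 4, then lasted 0, 6, 24 or 48 h. WT cells came from C57BL/6J mice and the other cells from Arntl-/- mice (BmalKO in the labels), for which no Cre or cell type restriction of the deletion is named. The knockout was made on a C57BL/6 background, and since the labels take the C57BL/6J mice from a supplier while the study also speaks of littermate controls, it is not settled whether the WT mice were littermates. PolyA RNA was sequenced from 1 library for each genotype and each of these times, 8 in all. Columns of the same table headed 1 and 72 h match none of the samples described and were not used here. With no replicate library, no difference below has a test against the spread between cultures or mice, and the genotype and the mice that carried it cannot be told apart.

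Bmal1 pairs with Clock on E-box DNA and switches on the Per, Cry and Nr1d genes, whose products feed back on the clock. The Rev-Erb receptors encoded by Nr1d1 and Nr1d2 repress genes through response elements that they share with the ROR receptors. Cadm1 is an immunoglobulin-family adhesion molecule that binds itself, nectins and Crtam across cell contacts. Il23r is the receptor chain that gives IL-23 its specificity, joins Il12rb1 and signals through Jak2, Tyk2 and Stat3, and is best known in lymphocytes that make IL-17. Oaf, the mouse counterpart of the fly gene out at first, encodes a protein with a secretion signal.

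Cadm1 (NM_018770) spans chr9:47338435-47661468 on the plus strand of mm9, with 10 exons in the matching GENCODE transcript and 4342 exonic bases in the table. Oaf (NM_178644) lies on the minus strand at chr9:43029361-43047899, with 4 exons and 2382 exonic bases. Il23r (NM_144548) lies on the minus strand at chr6:67372926-67441849, with 11 exons and 2475 exonic bases. No other annotated gene overlapped their exons. Arntl itself is on chromosome 7. The 250 bases before the start of Oaf and of Il23r, from RefSeq on build GRCm38.p6, are shown because clock proteins and Rev-Erbs act through short DNA motifs that can be looked for in them. These windows are chr9:43239817-43240066 for Oaf and chr6:67491856-67492105 for Il23r, both on the minus strand and read 5′ to 3′. Capitals mark the nuclear receptor half-site AGGTCA on either strand and the longer Rev-Erb and ROR response element (RORE).
Oaf: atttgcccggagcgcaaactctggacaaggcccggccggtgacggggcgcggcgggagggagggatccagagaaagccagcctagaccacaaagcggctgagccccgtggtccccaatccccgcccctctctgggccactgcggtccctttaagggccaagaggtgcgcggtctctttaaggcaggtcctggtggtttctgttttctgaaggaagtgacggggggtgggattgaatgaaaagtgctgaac
Il23r: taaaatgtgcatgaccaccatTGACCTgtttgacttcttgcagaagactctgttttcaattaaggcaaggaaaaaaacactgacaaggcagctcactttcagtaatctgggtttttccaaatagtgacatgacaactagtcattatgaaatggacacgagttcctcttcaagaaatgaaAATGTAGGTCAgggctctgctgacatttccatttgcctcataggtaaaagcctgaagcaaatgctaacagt

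Both windows were searched on both strands for the E-box CACGTG, the half-site AGGTCA, the RORE and the PU.1 core GAGGAA. Cadm1 had no entry in the promoter set used and was not searched. The Il23r window held 2 half-sites, at bases -229 to -224 and -66 to -61 from the start. The second lies inside a RORE match, AATGTAGGTCA, at -71 to -61, so these are not separate matches. A PU.1 core matched on the minus strand at -90 to -85, and there was no CACGTG. None of the 4 motifs was found in the Oaf window. Among 27025 mouse promoter windows of this length, 6.05% held CACGTG, 13.8% AGGTCA, 0.363% a RORE and 23.1% GAGGAA. GC content was 62% for Oaf and 39.6% for Il23r, against a median of 52% over all windows. A match is a run of letters and does not show that a factor binds there.

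Levels are given as scaled FPKM, the deposited fragments per kilobase of exon per 10000000 reads divided by a size factor for each library, so that levels of different genes can be set side by side. Reads on genes ranged from 8587560 to 27036783 per library. The 95% intervals beside ratios rest on the reads counted, cover counting error only and say nothing of the spread between cultures. As a check of the labels, Arntl measured 34.3, 32.3, 35.6 and 38.7 scaled FPKM in WT at 0, 6, 24 and 48 h and 13.9, 11.3, 18.8 and 20.2 in Arntl-/-, so reads remained but the ranges of the genotypes did not overlap. Which exons the allele lacks was not given in the sources used here. Nr1d2 measured between 60.2 and 95.4 scaled FPKM in the WT libraries and between 2.76 and 6.15 in the Arntl-/- libraries, and Nr1d1 was also lower at each time, by a mean log2 ratio of -1.28. Dbp, another clock output gene, was within 1.5-fold at each time, with log2 ratios of 0.19, 0.35, 0.13 and -0.49.

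Cadm1 stood several-fold higher in Arntl-/- BMDMs and moved little with KLA in either genotype. In WT it measured 71.8, 53.4, 50.5 and 59.6 scaled FPKM before KLA and 6, 24 and 48 h after it, from 661, 1133, 367 and 345 reads. In Arntl-/- BMDMs it measured 326, 334, 299 and 289 at the same times, from 4425, 3680, 3248 and 1611 reads. The 2 sets of libraries did not overlap, and the lowest Arntl-/- library was 4.02 times the highest WT library. The ratio of Arntl-/- to WT was 4.54-fold at 0 h (95% counting interval 4.05 to 5.12), 6.24-fold at 6 h (5.68 to 6.87), 5.91-fold at 24 h (5.08 to 6.93) and 4.84-fold at 48 h (4.11 to 5.75). On the log2 scale these ratios averaged 2.42, or 5.34-fold, the highest mean among the genes analyzed, which leave out genes low in every WT library. Among the ratios of single times, that of Cadm1 ranked 3 before KLA and then 1, 2 and 13. All 4 Arntl-/- libraries exceeded all 4 WT libraries in 0.667% of the genes analyzed, 70 in number, and of these Cadm1 had the widest gap. Since the gene was picked on this contrast, these ranks describe it and test nothing.

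Within a genotype, the highest Cadm1 level was 1.42 times the lowest in WT and 1.15 times in Arntl-/-. WT Cadm1 was highest before KLA and lower at 6 h by a log2 change of -0.43 (counting interval -0.63 to -0.23) and at 24 h by -0.51 (-0.78 to -0.24). Arntl-/- Cadm1 changed by 0.03 at 6 h (-0.06 to 0.12) and by -0.13 at 24 h (-0.22 to -0.03). The genotype ratio was thus larger at 6 h than at 0 h by 0.46 on the log2 scale (0.24 to 0.67), and at 48 h it differed from that at 6 h by -0.36 (-0.64 to -0.09). Without the size factors these differences were 0.24 and -0.19. At 6 h the 9 macrophage markers listed had a median log2 ratio of 0.41, against -0.24 at 0 h, and their part in the Cadm1 ratio was not tested. In the order of the 8 levels, the 6 h and 0 h Arntl-/- libraries could not be separated by counting, nor could 24 h and 48 h, and no neighbouring WT libraries could. The widest step, 2.01 on the log2 scale (1.82 to 2.20), lay between the lowest Arntl-/- and the highest WT library.

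**Figure D1:**
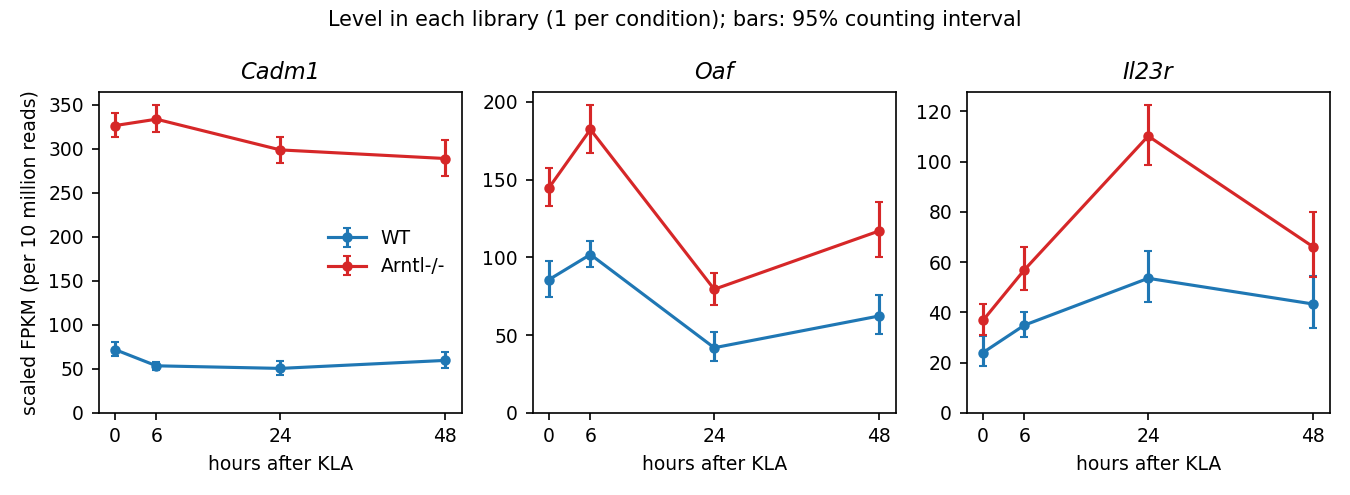
Scaled FPKM (vertical axis, starting at 0) of Cadm1, Oaf and Il23r in each library against hours after KLA, with WT in blue and Arntl-/- in red; each point is 1 library and bars are 95% counting intervals. Cadm1 runs at 289 to 334 in Arntl-/- and 50.5 to 71.8 in WT, whereas Oaf and Il23r follow a like course over time in both genotypes at different heights.

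Oaf was higher in Arntl-/- BMDMs by a smaller margin, and its level moved with KLA in both genotypes. WT libraries measured 85.7, 102, 41.9 and 62.3 scaled FPKM at 0, 6, 24 and 48 h, from 433, 1185, 167 and 198 reads. Arntl-/- libraries measured 145, 182, 79.5 and 117, from 1078, 1103, 474 and 358 reads. Each Arntl-/- value exceeded the WT value of its own time, but across times the genotypes overlapped, since the Arntl-/- library at 24 h lay below the WT libraries at 0 and 6 h. Arntl-/- exceeded WT 1.69-fold at 0 h (counting interval 1.44 to 1.99), 1.79-fold at 6 h (1.59 to 2.01), 1.90-fold at 24 h (1.47 to 2.47) and 1.88-fold at 48 h (1.46 to 2.43). The log2 ratios spanned 0.17, from 0.76 to 0.92 (0.27 without the size factors), and averaged 0.86 (1.81-fold, rank 22 of the genes analyzed). No pair of times differed in this ratio beyond counting error.

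The course of Oaf after KLA had the same order in both genotypes, highest at 6 h, then 0 h, then 48 h, and lowest at 24 h. From 0 to 24 h it dropped by 1.03 on the log2 scale in WT (counting interval -1.42 to -0.66) and by 0.87 in Arntl-/- (-1.09 to -0.64). A drop of at least 1.5-fold between these times was met by 8.83% of the genes analyzed in WT and 9.57% in Arntl-/-. At 48 h Oaf was 1.49 times its 24 h level in WT and 1.47 times in Arntl-/-, with counting intervals on the log2 scale of 0.14 to 1.01 and 0.27 to 0.84. Its Arntl-/- level at 48 h and WT level at 6 h could not be separated by counting, and neither could its WT level at 0 h and Arntl-/- level at 24 h.

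Il23r had the lowest level of the 3 genes in both genotypes at 0, 6 and 48 h, and the genotype ratio was widest at 24 h. In WT it measured 24.0, 34.9, 53.6 and 43.3 scaled FPKM at 0, 6, 24 and 48 h, from 126, 422, 222 and 143 reads. In Arntl-/- it measured 36.9, 56.9, 110.2 and 66.1, from 285, 358, 683 and 210 reads. The 24 h Arntl-/- library stood above the other 7, the Arntl-/- libraries at 48 and 6 h came next, and the genotypes overlapped because the 0 h Arntl-/- library lay below WT at 24 and 48 h. The ratio was 1.53-fold at 0 h (counting interval 1.13 to 2.10), 1.63-fold at 6 h (1.33 to 2.0), 2.06-fold at 24 h (1.66 to 2.57) and 1.52-fold at 48 h (1.12 to 2.09). The ratio at 24 h exceeded that at 0 h by 0.42 on the log2 scale (-0.10 to 0.95), and no pair of times differed beyond counting error. At 0 and 48 h the estimate was just past 1.5-fold and its interval reached well below it. The mean log2 ratio was 0.74 (1.67-fold, rank 32). Read without the size factors the lowest of its 4 log2 ratios was 0.57, under the 1.5-fold line of 0.58.

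Il23r was higher after KLA in both genotypes. Its level at 24 h was 2.23 times that at 0 h in WT and 2.98 times in Arntl-/-, with log2 counting intervals of 0.70 to 1.63 and 1.29 to 1.87. At 48 h it was still 1.80-fold above 0 h in WT and 1.79-fold in Arntl-/-. Rises of at least 1.5-fold were found for 8.69% of the genes analyzed in WT and 7.8% in Arntl-/- at 24 h, and for 13.5% and 15.2% at 48 h. Between 24 and 48 h Il23r dropped by 0.74 on the log2 scale in Arntl-/-, whereas the WT change of -0.31 had a counting interval of -0.76 to 0.14. In the order of the 8 levels only 2 steps exceeded counting error, below the 24 h Arntl-/- library and above the 0 h WT library.

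**Figure D2:**
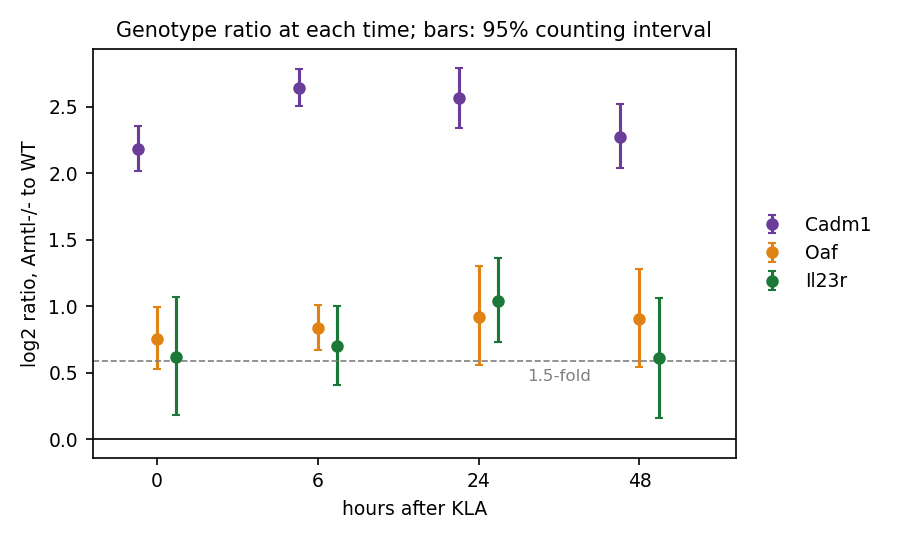
Log2 ratio of Arntl-/- to WT (vertical axis) for Cadm1, Oaf and Il23r at each time after KLA; points are ratios of 1 library to 1 library, bars are 95% counting intervals and the dashed line marks 1.5-fold. Cadm1 lies between 2.18 and 2.64, Oaf between 0.76 and 0.92, and Il23r between 0.61 and 1.04.

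Against all genes, a rise of at least 1.5-fold in Arntl-/- was met by 3.19%, 2.03%, 3.59% and 5.74% of the genes analyzed at the successive times, and a fall of that size by 1.98%, 2.64%, 3.11% and 5.91%. At least 1.5-fold higher at all 4 times were 10 genes, or 0.0954%, and 14 were lower at all 4. The limit on reads was set on WT libraries only. It left out genes low in WT and high in Arntl-/- but kept the reverse, so counts of higher and lower genes are not an even comparison. The count of 10 rests on the limit on reads and on all 4 times, being 84 with an FPKM of at least 1 in any library, 91 with no limit, 24 without the 6 h libraries and 17 without the 48 h libraries. Ranked by mean ratio the 10 were Cadm1, Cry1, Chil3, Per2, Cx3cr1, Tgtp1, Itga1, Clec2i, Oaf and Il23r. Some of these rested on few reads in a library, as few as 6 for Chil3, 39 for Tgtp1 and 44 for Clec2i. Cry1 and Per2 are clock repressors, Chil3 is a secreted chitinase-like protein of macrophages, Cx3cr1 the fractalkine receptor and Itga1 a collagen-binding integrin chain. Since all 3 members were picked for being higher at all times, their place in this count is set by the choice. Oaf and Il23r stood 9 and 10, with lowest log2 ratios of 0.76 and 0.61. Just outside were Glipr2 (lowest log2 ratio 0.55, at 6 h), F10, which encodes coagulation factor X (0.50), and Gm5483 (0.49). Counting any excess, however small, 822 genes were higher at all 4 times.

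**Figure D3:**
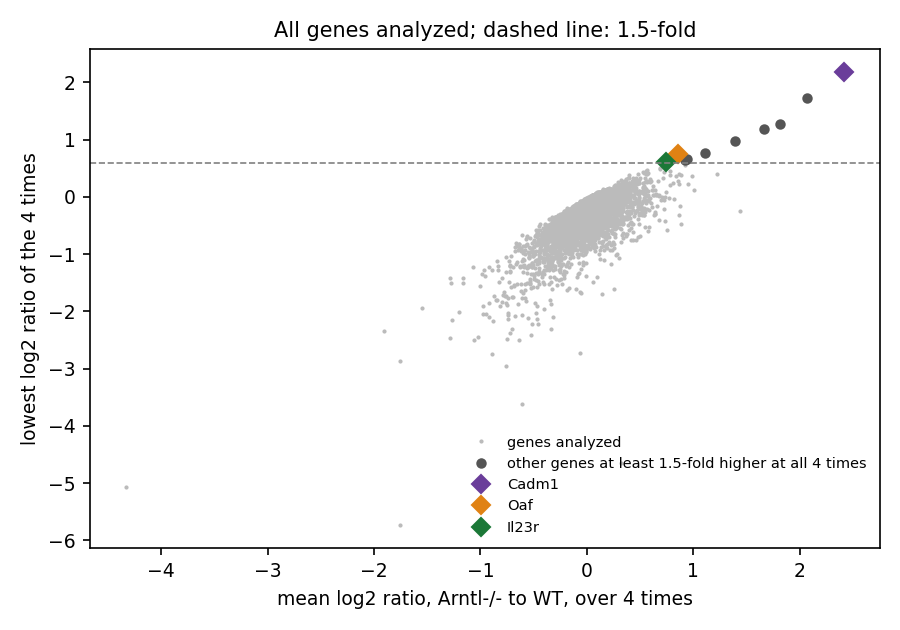
Each gene analyzed by its log2 ratio (Arntl-/- over WT) averaged over the times (horizontal axis) and the lowest of its 4 log2 ratios (vertical axis); the dashed line is 1.5-fold. Cadm1 is at the upper right end at 2.42 and 2.18, and Oaf and Il23r lie close above the line at 0.76 and 0.61.

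Cadm1 and Oaf lie on the same chromosome, 4290536 bases apart, with 35 analyzed genes between them. None of the 35 was at least 1.5-fold higher at all 4 times. Of these genes, 3 were higher and 4 lower by that size at 1 or more times, and their mean log2 ratios ran from -0.74 to 0.50 with a median of -0.03. Over all genes analyzed 12.2% were higher and 10.9% lower by that size at 1 or more times, and 20.8% differed either way. At all 4 times 0.0954% were higher by that size, so counts of 0 here and below are the usual ones in sets this small. The nearest analyzed genes on either side of Cadm1 were Bud13 (mean log2 ratio -0.18) and Rexo2 (-0.07). For Oaf they were Arhgef12 (-0.13) and Usp2 (-0.74), a deubiquitinase gene that was lower at 0, 6 and 24 h, higher at 48 h, and rested on as few as 6 reads in a library. For Il23r they were Serbp1 (-0.13) and Rpia (-0.11). Of the 18 genes taken as the 3 nearest on each side of each member, 0 were higher at all 4 times and 2, Usp2 and Rnf26, differed at least 1.5-fold at some time. Within 5 Mb of Il23r no other analyzed gene of 29 was raised at all 4 times. Chromosome 9 held 3 of the 10 genes raised at all 4 times, Cadm1, Oaf and Cx3cr1, and 5.49% of the genes analyzed.

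**Figure D4:**
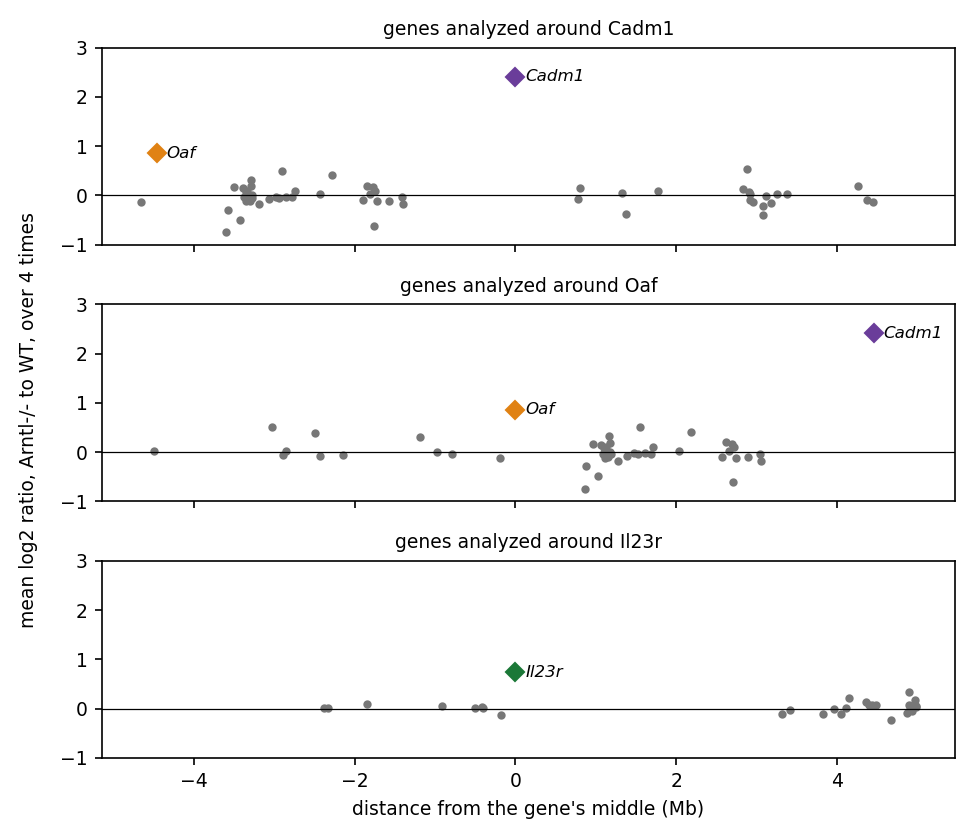
Log2 ratio (Arntl-/- over WT) averaged over the times (vertical axis) for every analyzed gene within 5 Mb of Cadm1, Oaf or Il23r, by the distance between gene middles in Mb (horizontal axis); diamonds are the 3 genes and dots are their neighbours. The neighbours run from -0.74 to 0.53, and each of the 3 genes stands above them. The 3 were picked on these ratios and the neighbours were not, so the gap tests nothing.

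In a list of 14 genes, the Cadm family, the nectins, receptors of either and also Cd200r1, the receptor for CD200, 5 were analyzed. These were Cadm1, Pvrl2, Pvrl4, Pvr and Cd200r1, and only Cadm1 was at least 1.5-fold higher at any time. Cadm1 was picked on these ratios, and over all genes analyzed 12.2% were higher by that size at 1 or more times. Cadm2 and Cadm3 had at most 7 reads in any library and Cadm4 at most 21. The nectin genes Pvrl1 and Pvrl3 also lay below the limit on reads. Pvrl1 had 31 reads in WT and 81 in Arntl-/- at 48 h (4.60 and 12.5 scaled FPKM), but was lower in Arntl-/- at 0 and 6 h. Pvrl3 had 0 reads in WT and 36 in Arntl-/- at 0 h, but was lower in Arntl-/- at 24 and 48 h. Crtam, a receptor for Cadm1 on activated lymphocytes, had at most 10. Tigit and Cd96, lymphocyte receptors for nectins, were listed at 0 in all 8 libraries; a count of 0 still allows an expected count of up to 3 read pairs, or 6 reads where both ends are counted, in each. The nectin gene Pvrl4 was lower at 48 h, at 51.9 scaled FPKM in Arntl-/- and 82.2 in WT (log2 ratio -0.66). Pvr, the poliovirus receptor, had log2 ratios from -0.27 to 0.45 and Pvrl2 was higher after KLA in both genotypes, being 40.9 in WT and 30.8 in Arntl-/- at 0 h, then 168.8 and 169.0 at 48 h.

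The tail of Cadm1 binds band 4.1 proteins and membrane-associated guanylate kinases. Of 12 such partners and related genes, 8 were analyzed and 1 passed 1.5-fold, at 1 time. That gene was Cask, a scaffold kinase, at 48 h (log2 ratio 1.04, with 10.5 scaled FPKM in WT and 21.5 in Arntl-/-). Its ratios at 0, 6 and 24 h were -0.25, -0.36 and 0.08. The band 4.1 genes Epb41l1, Epb41l2 and Epb41l3 had mean log2 ratios of -0.36, -0.03 and -0.03, and the scaffold genes Mpp1 and Dlg1 were within 1.5-fold throughout. Median log2 ratios of the partners were -0.05, -0.09, 0.04 and -0.08 at the 4 times, beside -0.01, 0.01, -0.00 and -0.02 over all genes analyzed.

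Among the ligands and receptors of the IL-12 family, to which IL-23 belongs, Il23r was the only 1 of the 4 genes analyzed that passed 1.5-fold. Il23r was picked on these ratios, and over all genes analyzed 20.8% differed by that size at 1 or more times. Il23a and Il12b, the subunits of IL-23, were near the floor: Il23a was listed at 0 in 6 libraries with 8 reads in WT and 4 in Arntl-/- at 6 h, and Il12b reached at most 25 reads. Il12a, the partner of Il12b in IL-12, measured 4.48, 6.81, 29.8 and 17.2 scaled FPKM in WT and 5.58, 19.0, 42.4 and 37.0 in Arntl-/-, from 12 to 134 reads. It lay below the limit on reads and is left out of the counts. Ebi3, a subunit of IL-27 and the 1 ligand gene analyzed, had log2 ratios between -0.19 and 0.20. Of the 5 receptor genes 3 were analyzed. Il12rb1, the chain that Il23r needs for IL-23, measured 41.8, 46.5, 18.0 and 29.4 in WT and 36.7, 65.2, 26.7 and 41.5 in Arntl-/-. Its log2 ratios were -0.19, 0.49, 0.57 and 0.49, under the line each time. Its course also differed from that of Il23r, since both genotypes had their lowest Il12rb1 level at 24 h, when Il23r was highest.

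Downstream of the receptor all 10 listed genes were analyzed. Socs1, an inhibitor of Jak signaling, was higher at 0 h (27.6 scaled FPKM in WT, 51.4 in Arntl-/-, log2 ratio 0.90) and was within 1.5-fold at 6, 24 and 48 h. The kinases Jak2 and Tyk2 and the transcription factors Stat3, Stat4, Stat5a and Stat5b stayed within 1.5-fold at all times, as did the inhibitors Socs3 and Ptpn2. Stat3, the main transducer of IL-23, had log2 ratios between -0.05 and 0.10. Of 10 genes tied to the IL-17 response 3 were analyzed. Rora, encoding a ROR receptor, was higher at 6 h (log2 ratio 0.65), and Il1r1, the IL-1 receptor, at 24 and 48 h (0.65 and 0.69). Il17a, the cytokine gene itself, was listed at 0 in all 8 libraries.

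Leaving out the members and the clock genes, 28 listed genes were analyzed at 4 times. Of these 112 pairs of gene and time, 5 were at least 1.5-fold higher and 1 lower in Arntl-/-, or 5.36%, beside 7.05% of all such pairs over the genes analyzed.

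**Figure D5:**
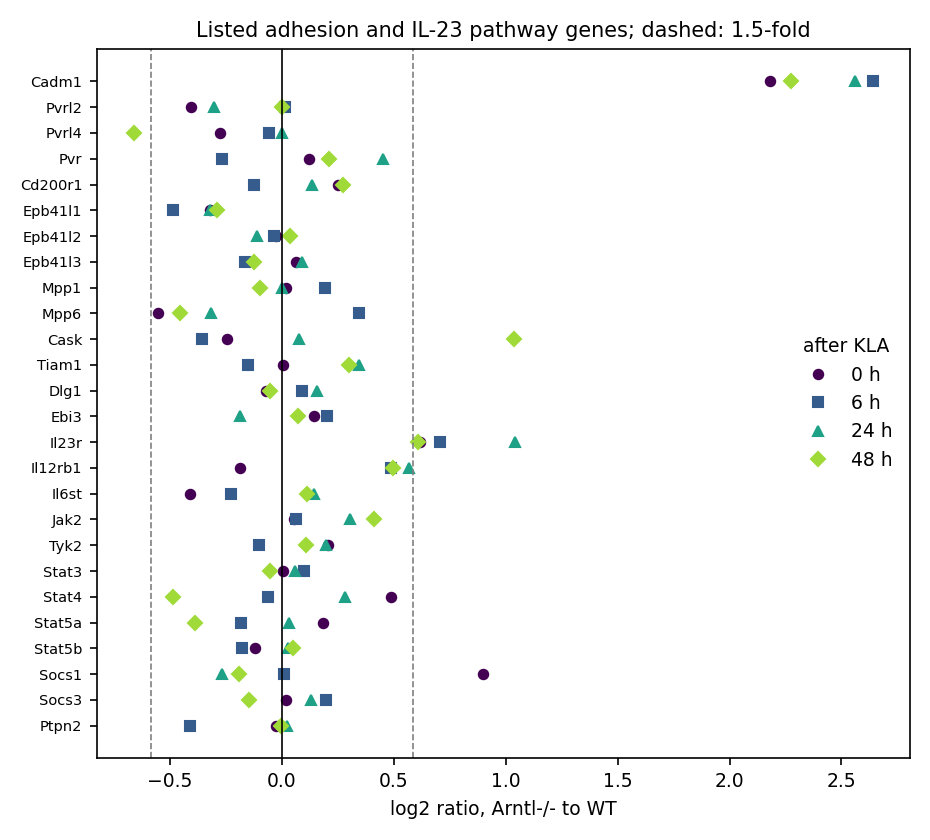
Log2 ratio of Arntl-/- to WT (horizontal axis) at 0, 6, 24 and 48 h after KLA for analyzed genes of the adhesion, partner, IL-12 family and IL-23 signaling lists; dashed lines mark 1.5-fold either way. Cadm1 and Il23r, picked on these ratios, lie beyond the upper line at all 4 times. Beside them only Cask at 48 h and Socs1 at 0 h do, with Pvrl4 beyond the lower line at 48 h.

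The genes whose log2 levels were most like each member over the 8 libraries were read off by Pearson's r. For Cadm1 they were Cry1 (0.96), Psme2b (0.96), Cryz (0.95), Uckl1 (0.93) and Slc37a2 (0.92). All 5 were higher in Arntl-/- at each time, by mean log2 ratios from 0.33 for Slc37a2 to 2.07 for Cry1. For Oaf they were Cops5 (0.97), Rsu1 (0.94), Unc119 (0.94), Rpp21 (0.94) and Cst7 (0.92). Cst7, which encodes the protease inhibitor cystatin F, had the widest genotype gap of these 5, with a mean log2 ratio of 1.005 and a ratio of 0.11 at 48 h. For Il23r they were Serpinb2 (0.97), F10 (0.96), Mfsd7a (0.96), Fam117a (0.96) and Gga3 (0.96). Serpinb2, a serine protease inhibitor of activated macrophages, went from 320 to 617 scaled FPKM between 0 and 24 h in WT, with 443 and 880 in Arntl-/-, and like Il23r it was highest at 24 h in both. Between members r was 0.72 for Cadm1 and Oaf, 0.53 for Cadm1 and Il23r, and -0.05 for Oaf and Il23r. These coefficients describe 8 libraries that share their genotype and times, and genes with a genotype step rank high for Cadm1 by that alone.

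Markers of the cells in the cultures were read from the same libraries, and counts of them are to be set beside the shares of all genes given above (3.19%, 2.03%, 3.59% and 5.74% higher, and 1.98%, 2.64%, 3.11% and 5.91% lower, at the successive times). All 9 macrophage markers found in the table were analyzed and within 1.5-fold between genotypes at each time, with a summed level of 16036 to 39202 scaled FPKM in WT and 18017 to 35171 in Arntl-/-. The 6 h pair stood apart, with 8 of the 9 above a log2 ratio of 0 against 1 at 0 h, 2 at 24 h and 3 at 48 h, and with median log2 ratios of -0.24, 0.41, -0.14 and -0.09 at the successive times. Of 8 analyzed stromal markers 4, 4, 5 and 6 were lower at the successive times and 1 was higher, at 0 h, with sums of 625 to 1653 in WT and 460 to 944 in Arntl-/-. Of 4 analyzed neutrophil markers 2, 4, 1 and 0 were higher at 0, 6, 24 and 48 h, with sums of 1237 to 2570 in WT and 1975 to 2885 in Arntl-/- and Mpo listed at 0. Most of each neutrophil sum was Mmp8 and S100a8. At 48 h, when the sums were highest, S100a9 measured only 10.1 in WT and 9.0 in Arntl-/-, and Ltf was listed at 0 in both. For lymphocytes, the cells best known for Il23r, the 10 T and innate lymphoid markers summed to 223 to 384 in WT and 302 to 398 in Arntl-/-, most of it Il7r. Il7r ranged from 208 to 374 and stayed within 1.5-fold, and Cd247, the other marker analyzed, was higher at 48 h. Their defining genes Cd3e and Cd3g were listed at 0 in all libraries, and Cd3d had 2 reads in 1 library. Mast cell markers summed to 3.43 to 6.88 in WT and 6.2 to 11.4 in Arntl-/-, with none of 10 analyzed and 4 listed at 0 throughout. Among type 1 dendritic cell markers, 3 of 10 were analyzed and none was past the line. The sums were 697 to 835 and 560 to 864, most of it Irf8, and Xcr1, Clec9a and Flt3 were each under 2 scaled FPKM. B cell markers summed to 125 to 185 and 132 to 179, most of it Blnk, with 1 of 2 analyzed lower at 0 h. The part of the stromal and neutrophil differences in the member values was not tested, and in such bulk RNA more cells of a type and more RNA per cell cannot be told apart.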

How the data were processed

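The 3 genes and all lists were chosen with earlier results of these data known. PolyA libraries (NEBNext, paired-end) of 8 BMDM samples were aligned by the authors to mm9 with STAR at default settings, and HOMER gave the deposited FPKM values per RefSeq gene, over exons, on both strands, with at most 3 reads per position and scaled to 10000000 reads. Their versions were not given in the sources used here. The deposited gene length is another column, in bases. Of 12 value columns 8 were used, and 4 headed 1 or 72 h, which match no sample, were not. Left out was 1 line that holds a fragment of text and no gene.

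Read counts were recovered from FPKM and length. All low values examined (100% in each library) came out whole within 0.1 read. Even counts prevailed (58.6% to 72.3% of the counts from 2 to 21 in a library), which was taken, without a check in the aligned reads, to mean that both ends of most pairs were counted. Exact intervals (Poisson for a level, conditional binomial for a ratio) therefore use the reads divided by 2, and are wider than from all reads. Each library was divided by a median-of-ratios size factor (0.918 to 1.13), and ratios are differences of log2(scaled FPKM + 0.1), which understates changes of low genes. Genes with 100 or more scaled reads in at least 1 WT library were analyzed, after the limit stated by the study, and a difference was counted from 1.5-fold. No count model was fitted because each condition has 1 library, so no p-values are given. Depth was 8587560 to 27036783 reads on genes per library. Some listed genes are counted with their list and not reported here by name. Older symbols were matched by the aliases in the table. Named were the 3 members, Arntl and genes of the listed pathways and markers. Of the 3 nearest analyzed genes on each side, the nearest and any that differed at least 1.5-fold at some time were named. Also named were the 5 genes most correlated with each member, the genes higher at all 4 times and the 3 nearest to that count. The intervals' division by 2 was set after the counts were seen. The steps were tested on simulated reads. Alternatives were other scalings, pseudocounts, filters and folds, and each time left out. Intervals were computed with scipy 1.17.1, curves with statsmodels 0.14.6 and the rest with numpy 2.4.6 and pandas 2.3.3 under Python 3.11.15.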

Additional observations from a re-analysis of the deposited data

Results flagged for a closer look

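Under the main scaling, the point values of Cadm1 had opposite signs in the 2 genotypes over 2 steps between neighbouring times. From 0 to 6 h after KLA its log2 change was -0.43 in WT and 0.0316 in Arntl-/-, and from 24 to 48 h it was 0.24 in WT and -0.0482 in Arntl-/-. Each value is a ratio of 1 library to 1 library, 3 of the 4 lie within counting error of 0 and the exception is the WT change from 0 to 6 h. The opposite directions depend on the scaling. The Arntl-/- change from 0 to 6 h was -0.027 as deposited, and that from 24 to 48 h was 0.0093 with upper-quartile scaling and 0.0385 with a correction for expression level, the same direction as WT in each case. The difference between genotypes was not tested, since there is no replicate library.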

How the results depend on the processing

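The mean log2 ratios of Cadm1, Oaf and Il23r moved by less than their spread over times under every scaling, pseudocount and omission of a time that was run. The count of genes at least 1.5-fold higher in Arntl-/- at all 4 times, 10 as reported, was 24 without the 6 h libraries and 17 without the 48 h libraries (leaving out a time can only add genes). It was 84 with a filter of FPKM of at least 1 in any library, 91 with no filter on low values, 822 for any difference and 4 for a fold of 2. Under the other settings it ran from 7 to 13. Il23r left the count with values as deposited (lowest log2 ratio 0.57) and with a correction for expression level (0.55), and Cadm1 and Oaf remained. At a fold of 2, Oaf and Il23r left it. As deposited, the span of the Oaf log2 ratios was 0.27 against 0.17, and the Cadm1 ratio at 6 h exceeded that at 0 h by 0.24 against 0.46. Of 150 changes over time under alternative settings, 1 lay outside its counting interval, that of Arntl-/- Cadm1 from 0 to 48 h, which was -0.35 as deposited against -0.18. Genes added by the weaker filters had under 100 scaled reads in every WT library, by construction. The genotype ratios are paired by time throughout, and no test was run over the 4 pairs, because the genes were chosen on those ratios. No paired analysis by replicate was possible because the columns carry no replicate number. Precision is limited by 1 library per condition, and the shallowest, Arntl-/- at 48 h, had 8587560 reads.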
